A study of Mus musculus with 12 samples.

Results

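Zinc transporters and metallothioneins were followed in MIN6 cells, a mouse insulinoma line used as a model of the pancreatic beta cell, after depletion of Pdx1, a homeodomain transcription factor of beta cells. The genes were taken from a list of 10 zinc transporter and metallothionein genes, all of which were present among the 12643 genes measured. They comprised 4 Slc30 transporters (Slc30a1, Slc30a5, Slc30a7 and Slc30a8), 4 Slc39 transporters (Slc39a6, Slc39a7, Slc39a10 and Slc39a14) and 2 metallothioneins (Mt1 and Mt2). Passage 29 cells in high-glucose medium received either Pdx1 siRNA or the control siRNA, labelled NT, by nucleofection and were harvested 72 h later. From each treatment both RNA pulled down with ribosomes by translating ribosome affinity purification (IP) and total RNA were sequenced. The 4 groups of 3 libraries each were therefore Pdx1 siRNA IP, Pdx1 siRNA total, NT siRNA IP and NT siRNA total. The labels name neither the tagged ribosomal protein nor its promoter, and they do not say whether the libraries of a group came from separate cultures. P-values therefore reflect the variation among these libraries only, and that variation may be technical.

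Beta cells store insulin with zinc in secretory granules, and the insulin hexamer is built around zinc ions. Transporters of the Slc30 family (ZnT proteins) move zinc out of the cytosol, into organelles or out of the cell, whereas the Slc39 family (ZIP proteins) moves zinc into the cytosol from outside or from organelles. Metallothioneins are small cysteine-rich proteins that bind zinc in the cytosol. The transcription factor MTF1 senses free zinc and binds metal response elements in the promoters of Mt1, Mt2 and the zinc exporter gene Slc30a1, which makes these the textbook zinc-responsive genes.

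The promoters of those 3 genes are shown because their transcripts, which share this regulator, moved in opposite directions after Pdx1 siRNA. They are taken from RefSeq on GRCm38.p6, each running from 250 bases before to 50 bases after the annotated start, 5′ to 3′ on the gene's strand. Capitals mark the core of the metal response element, TGCACNC or TGCGCNC, found on either strand, so that a match on the opposite strand reads as its reverse complement. The windows were chr8:94178839-94179138 on the plus strand for Mt1, chr8:94172368-94172667 on the plus strand for Mt2 and chr1:191906531-191906830 on the plus strand for Slc30a1.
Mt1: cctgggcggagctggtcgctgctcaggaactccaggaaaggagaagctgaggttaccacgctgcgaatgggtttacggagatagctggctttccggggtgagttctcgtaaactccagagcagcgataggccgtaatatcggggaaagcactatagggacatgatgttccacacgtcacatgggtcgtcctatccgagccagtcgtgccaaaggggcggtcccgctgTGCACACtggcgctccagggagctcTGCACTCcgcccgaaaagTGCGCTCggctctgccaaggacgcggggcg
Mt2: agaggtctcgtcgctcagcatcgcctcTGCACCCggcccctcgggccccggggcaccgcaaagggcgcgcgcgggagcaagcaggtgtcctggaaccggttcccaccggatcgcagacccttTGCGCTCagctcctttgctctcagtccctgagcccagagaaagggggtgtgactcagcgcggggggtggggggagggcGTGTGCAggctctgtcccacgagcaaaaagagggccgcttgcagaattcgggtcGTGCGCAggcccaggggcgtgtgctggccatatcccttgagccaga
Slc30a1: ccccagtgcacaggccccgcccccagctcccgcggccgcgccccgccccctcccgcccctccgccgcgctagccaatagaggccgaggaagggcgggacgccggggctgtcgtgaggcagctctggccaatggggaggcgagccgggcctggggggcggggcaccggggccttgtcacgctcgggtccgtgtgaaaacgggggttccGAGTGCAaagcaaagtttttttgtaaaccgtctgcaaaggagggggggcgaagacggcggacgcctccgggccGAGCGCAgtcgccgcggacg

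The Mt2 window held 4 matches, the Mt1 window 3 and the Slc30a1 window 2, with no match overlapping another. Of 32851 promoter windows of 300 bases in the same table, 25.7% held at least 1 match, 7.11% at least 2, 1.97% at least 3 and 0.52% at least 4. All 3 matches of Mt1 lay on the gene's strand, with first bases at -23, 2 and 20 relative to the first transcribed base, which is counted as 0. The Mt2 matches began at -223 and -128 on the gene's strand and at -50 and 4 on the opposite strand. Both Slc30a1 matches, at -43 and 30, lay on the opposite strand. Mt2 and Mt1 are neighbours on chromosome 8, with their annotated starts 6471 bases apart. For Mt1 and Slc30a1 the GENCODE gene begins upstream of the RefSeq start, inside the window shown. Of the 10 members 7 were matched in the table, not Slc30a8, Slc39a6 or Slc39a14, and among the others Slc30a5 had 1 match, and Slc30a7, Slc39a7 and both windows of Slc39a10 had 0. A match is only these letters in this window and does not show that the factor binds there.

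**Figure D1:**
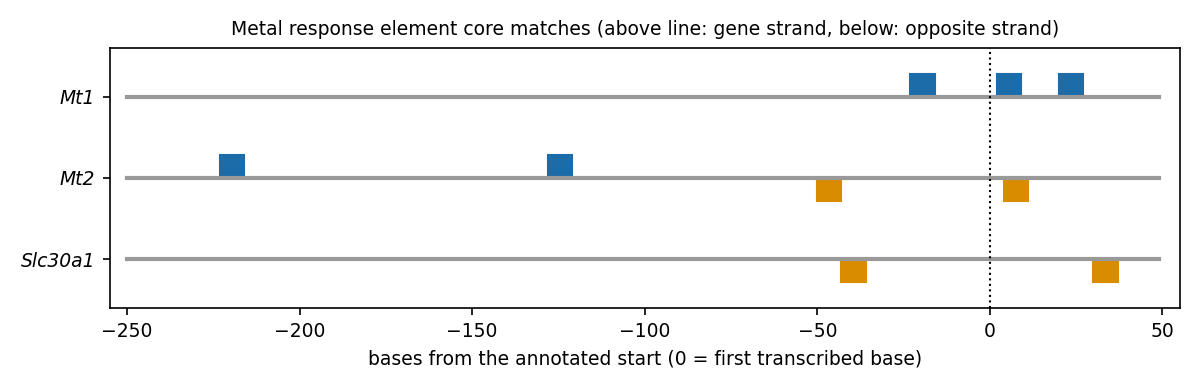
Positions of the metal response element core (boxes) in the promoter windows of Mt1, Mt2 and Slc30a1, with the x axis in bases from the annotated start. Boxes above a line are on the gene's strand and boxes below it on the opposite strand, with 3 boxes in Mt1, 4 in Mt2 and 2 in Slc30a1.

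Levels below are CPM, the counts of a gene relative to its library size, with library sizes scaled by the trimmed mean of M values (TMM), an edgeR method that corrects for differences in RNA composition. The tests are edgeR's quasi-likelihood tests on the counts, and adjusted p-values (Benjamini-Hochberg over all 12643 genes) under 0.05 count as changed. Library totals were 29430690 to 45806807 counts, and the members held 720 to 57157 counts in a library. The targeted gene, Pdx1, averaged 51.0 ± 5.5 CPM with Pdx1 siRNA and 116.9 ± 6.9 CPM with NT siRNA in total RNA (SD, n = 3 each, adjusted p = 9.97e-08), and 45.5 ± 5.8 CPM with Pdx1 siRNA and 110.0 ± 5.8 CPM with NT siRNA in IP RNA (adjusted p = 4.28e-08). All 10 beta cell markers listed were measured, Slc30a8 among them, and none was at 0. After Pdx1 siRNA 2 of them were higher and 4 lower in total RNA, beside 23.8% of all genes higher and 29.2% lower. In IP RNA 1 was higher and 5 lower, beside 29.2% of all genes higher and 30.4% lower. Their summed level was 94560 to 100900 CPM with Pdx1 siRNA and 104800 to 115900 CPM with NT siRNA in total RNA, and 186000 to 229800 CPM with Pdx1 siRNA and 205400 to 240100 CPM with NT siRNA in IP RNA. This sum is mostly Ins2, Iapp and Ins1, which averaged 55930, 26550 and 12930 CPM in Pdx1 siRNA total, and says little of the other markers. Of 12 markers of other islet endocrine cells 6 were measured (Gcg, Gc, Ttr, Irx1, Irx2 and Ppy), none of them at 0, and all 6 rose after Pdx1 siRNA in both fractions, beside the same shares of all genes. Their summed level was 31500 to 35170 CPM with Pdx1 siRNA and 10770 to 13030 CPM with NT siRNA in total RNA, and 61430 to 77530 CPM with Pdx1 siRNA and 19710 to 23900 CPM with NT siRNA in IP RNA. Most of it is Ttr, which averaged 29480 CPM in Pdx1 siRNA total and 10950 CPM in NT siRNA total. The part of these shifts in the results below was not tested, and in bulk RNA fewer cells of a type cannot be told apart from less RNA per cell. Markers of acinar and duct cells and of immune, endothelial and stromal cells are not analysed here. TMM factors were 0.95 to 1.066 for Pdx1 siRNA total, 1.22 to 1.231 for NT siRNA total, 0.752 to 0.866 for Pdx1 siRNA IP and 0.984 to 1.011 for NT siRNA IP. Without them the median log2 fold change of all genes was -0.32 for Pdx1 against NT siRNA in either fraction, compared with -0.04 in total RNA and -0.01 in IP RNA with them, so the siRNA changes are relative to most genes. The IP libraries fell into 2 kinds at the retrogene Rpl32l, with 33, 37 and 22 counts in Pdx1 siRNA IP and 29 in NT siRNA IP replicate 3, against 1726 and 1260 counts in NT siRNA IP replicates 1 and 2. Total RNA libraries held 728, 838 and 699 counts with Pdx1 siRNA and 932, 957 and 1131 counts with NT siRNA. Under Pdx1 siRNA all IP libraries were thus of the low kind and no total RNA library was. Fraction and this split cannot be told apart there. No transcript of a member aligned at 95% identity over 100 bases to a transcript elsewhere.

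Both metallothioneins fell after Pdx1 siRNA in both fractions, while the exporter Slc30a1, the secretory-pathway transporter Slc30a7 and the endoplasmic reticulum transporter Slc39a7 rose. These 5 genes kept their direction and their call in total and in IP RNA under each of 23 alternative settings. In total RNA 6 of the 10 members were higher, 2 lower and 2 not past the test, beside 23.8% of all genes higher and 29.2% lower. In IP RNA 4 were higher, 2 lower and 4 not past the test, beside 29.2% of all genes higher and 30.4% lower. The median log2 fold change over the members was 0.28 in total RNA and 0.15 in IP RNA, beside -0.04 and -0.01 over all genes. Without the TMM factors the split became 4 higher and 3 lower in total RNA and 3 higher and 6 lower in IP RNA.

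**Figure D2:**
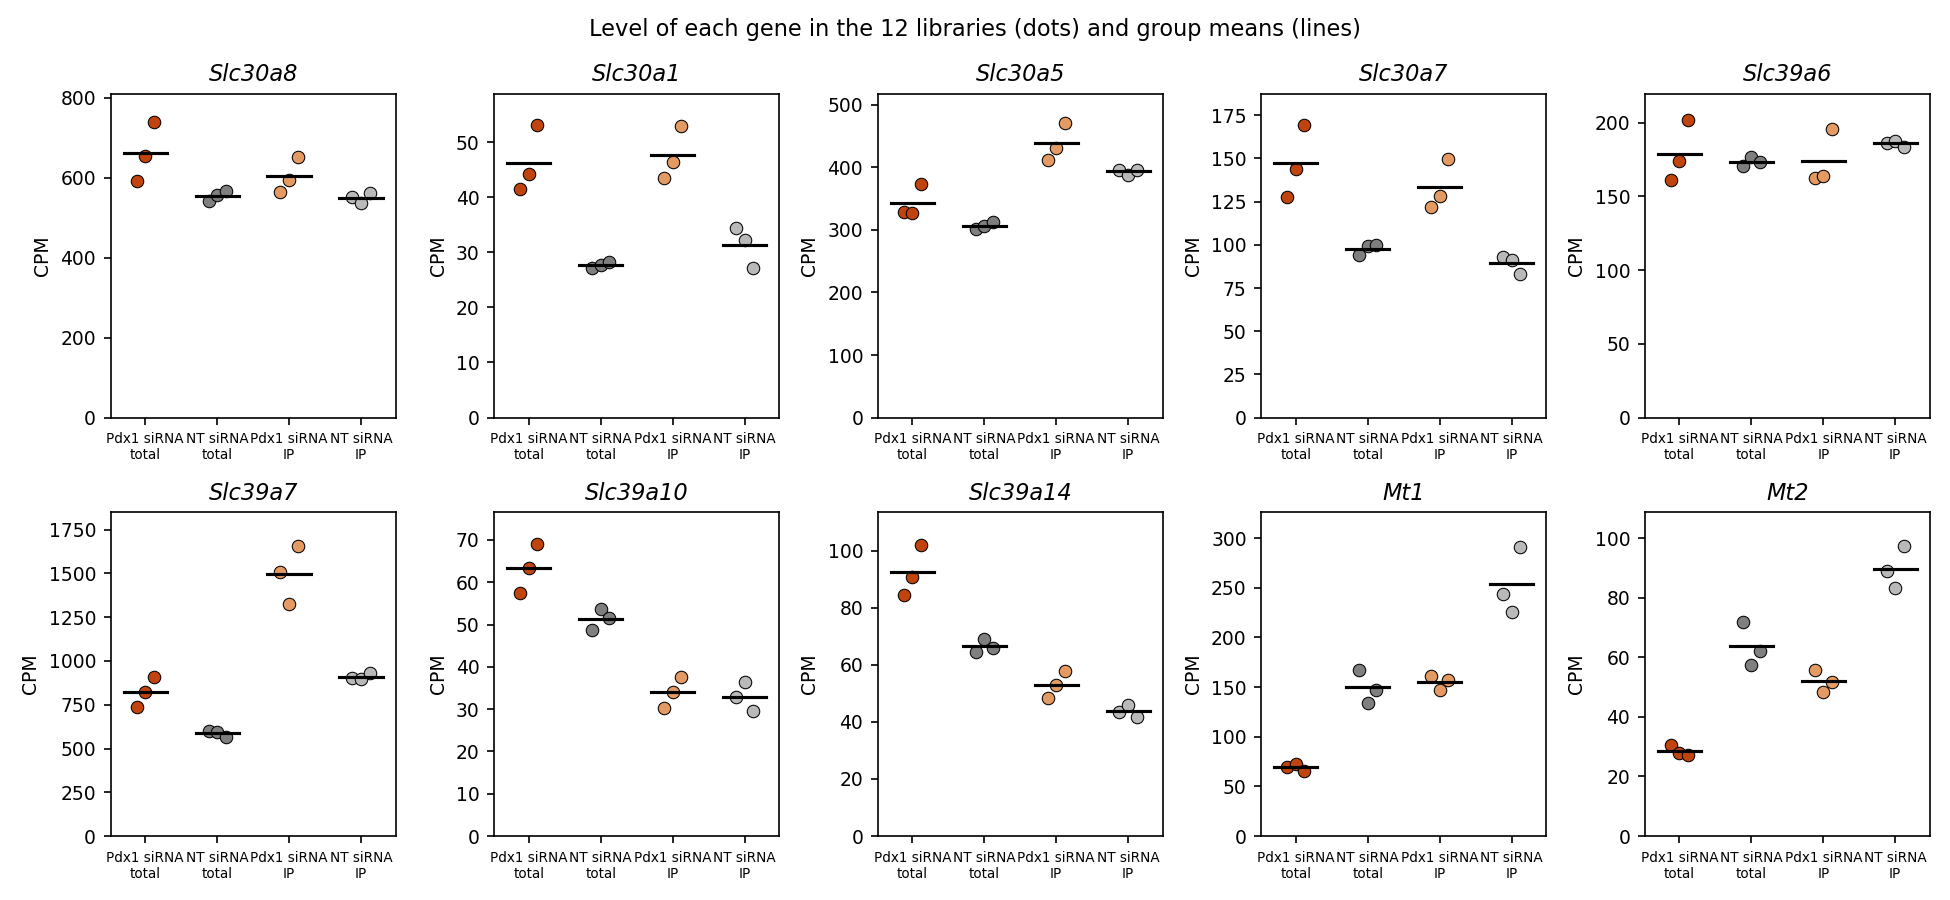
CPM (y axis, from 0) of the 10 genes in each of the 12 libraries, in the groups Pdx1 siRNA total, NT siRNA total, Pdx1 siRNA IP and NT siRNA IP; dots are libraries and lines are means of 3. The Mt1 dots of Pdx1 siRNA total lie between 65.5 and 72.1 CPM, below the 134.0 to 167.4 CPM of NT siRNA total.

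Mt1 encodes one of the 2 ubiquitous metallothioneins and lies at chr8:94178883-94180327. In total RNA it had 69.5, 72.1 and 65.5 CPM with Pdx1 siRNA, against 167.4, 134.0 and 147.3 CPM with NT siRNA. Every Pdx1 siRNA library was below every NT siRNA library, with a log2 fold change of -1.11 ± 0.10 (SE, adjusted p = 2.96e-07), which is a 2.17-fold fall. In IP RNA Mt1 had 161.6, 146.9 and 156.8 CPM with Pdx1 siRNA, against 243.9, 225.5 and 290.8 CPM with NT siRNA. The groups again did not overlap, and the fall was 1.63-fold (log2 fold change -0.71 ± 0.10, adjusted p = 2.43e-05).

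Mt2, its neighbour at chr8:94172618-94173567, had 30.6, 27.7 and 27.3 CPM with Pdx1 siRNA, against 71.7, 57.3 and 62.0 CPM with NT siRNA in total RNA. The fall was 2.23-fold there (log2 fold change -1.16 ± 0.09, adjusted p = 7.43e-08), with no overlap between the groups. IP RNA gave 55.8, 48.5 and 51.5 CPM with Pdx1 siRNA, against 89.0, 83.1 and 97.2 CPM with NT siRNA. There the fall was 1.73-fold (log2 fold change -0.79 ± 0.09, adjusted p = 3.30e-06). On the annotation 69.5% of the Mt2 exon bases are shared with Gm45774 on the opposite strand, and no source says whether the counting used strand.

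The 2 metallothioneins kept nearly the same proportion to each other. Per Mt1 count there were 0.414 ± 0.028 Mt2 counts with Pdx1 siRNA and 0.426 ± 0.004 with NT siRNA in total RNA (SD, n = 3 each). In IP RNA the ratio was 0.335 ± 0.009 with Pdx1 siRNA and 0.356 ± 0.019 with NT siRNA.

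Slc30a1 encodes ZnT1, the transporter that exports zinc across the plasma membrane, and lies at chr1:191906697-191913248. It had 41.5, 44.1 and 53.1 CPM with Pdx1 siRNA in total RNA, against 27.1, 27.6 and 28.3 CPM with NT siRNA. All Pdx1 siRNA libraries were above all NT siRNA libraries, and Slc30a1 rose 1.67-fold (log2 fold change 0.74 ± 0.10, adjusted p = 2.83e-05). The IP libraries held 43.5, 46.4 and 52.9 CPM with Pdx1 siRNA, against 34.5, 32.2 and 27.1 CPM with NT siRNA. The rise there was 1.53-fold (log2 fold change 0.61 ± 0.11, adjusted p = 1.55e-04). Of the Slc30a1 exon bases 8.92% are shared with 1700034H15Rik on the opposite strand, with the same limit as for Mt2.

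Mt1 and Slc30a1 thus moved apart, and their ratio within a library does not depend on scaling between libraries. In total RNA there were 1.67, 1.63 and 1.23 Mt1 counts per Slc30a1 count with Pdx1 siRNA, against 6.18, 4.85 and 5.21 with NT siRNA. In IP RNA the ratio was 3.71, 3.16 and 2.97 with Pdx1 siRNA, against 7.08, 7.01 and 10.7 with NT siRNA. The Pdx1 siRNA libraries had the lower ratio in both fractions, without overlap. MTF1, encoded by Mtf1, is the regulator the 2 genes share. The Mtf1 transcript averaged 33.7 ± 1.8 CPM with Pdx1 siRNA and 34.2 ± 1.4 CPM with NT siRNA in total RNA. Its log2 fold change was -0.02 ± 0.07 there (adjusted p = 0.831), with the sign changing between scaling methods and a value of -0.29 (adjusted p = 0.00984) without TMM factors, and 0.15 ± 0.07 in IP RNA (adjusted p = 0.0823), where it was -0.15 (adjusted p = 0.14) without TMM factors and 0.20 (adjusted p = 0.0493) without NT siRNA IP replicate 3.

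Slc30a8 encodes ZnT8, the transporter that loads zinc into insulin granules, and lies at chr15:52295553-52335798. It had 590.7, 653.8 and 740.2 CPM with Pdx1 siRNA in total RNA, against 541.6, 557.3 and 566.4 CPM with NT siRNA. The lowest Pdx1 siRNA library was only just above the highest NT siRNA library, and the log2 fold change was 0.25 ± 0.09 (adjusted p = 0.0276). This call was lost without Pdx1 siRNA total replicate 2 (0.26, adjusted p = 0.0519), without Pdx1 siRNA total replicate 3 (0.17, adjusted p = 0.136) and without NT siRNA total replicate 1 (0.27, adjusted p = 0.0529). Without TMM factors its log2 fold change was -0.03 (adjusted p = 0.714), above the -0.32 of the median gene. In IP RNA Slc30a8 had 565.1, 593.7 and 652.6 CPM with Pdx1 siRNA, against 550.4, 536.5 and 562.4 CPM with NT siRNA, a log2 fold change of 0.14 ± 0.09 that did not pass the test (adjusted p = 0.209).

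Slc30a5 (ZnT5) and Slc30a7 (ZnT7) carry zinc into the early secretory pathway, where it is loaded onto newly made proteins. Slc30a7, at chr3:115938973-116007414, had 127.9, 144.1 and 169.4 CPM with Pdx1 siRNA in total RNA, against 93.9, 99.5 and 99.7 CPM with NT siRNA. It rose 1.51-fold in total RNA (log2 fold change 0.59 ± 0.10, adjusted p = 1.75e-04), and no Pdx1 siRNA library was as low as an NT siRNA library. IP RNA gave 122.1, 128.4 and 149.7 CPM with Pdx1 siRNA, against 93.2, 91.3 and 83.2 CPM with NT siRNA. The log2 fold change of 0.58 ± 0.10 (adjusted p = 1.76e-04) was close to that in total RNA. Of the Slc30a7 exon bases 19.7% are shared with Gm43106 and Gm6649 on the opposite strand, and use of strand in the counting is not known.

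Slc30a5, at chr13:100802645-100833480, had 329.0, 327.6 and 373.5 CPM with Pdx1 siRNA in total RNA, against 301.5, 306.6 and 312.0 CPM with NT siRNA. Its log2 fold changes of 0.16 ± 0.08 in total RNA (adjusted p = 0.0944) and 0.16 ± 0.08 in IP RNA (adjusted p = 0.101) did not pass the test, although the groups did not overlap in either fraction. In IP RNA it had 412.6, 431.2 and 471.3 CPM with Pdx1 siRNA, against 396.2, 388.5 and 396.1 CPM with NT siRNA. DESeq2 called it in both fractions (adjusted p = 0.019 in total RNA and 0.0409 in IP RNA).

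Slc39a7 encodes ZIP7, which releases zinc from the endoplasmic reticulum into the cytosol, and lies at chr17:34028266-34031690. In total RNA it had 737.5, 821.1 and 908.1 CPM with Pdx1 siRNA, against 597.6, 596.5 and 566.9 CPM with NT siRNA. It rose 1.40-fold (log2 fold change 0.49 ± 0.10, adjusted p = 6.80e-04). Its IP levels were 1506.0, 1325.0 and 1659.0 CPM with Pdx1 siRNA, against 901.6, 894.5 and 933.2 CPM with NT siRNA, a 1.65-fold rise (log2 fold change 0.72 ± 0.10, adjusted p = 1.68e-05). The groups were well separated in both fractions. The annotated gene Gm20427 shares 86.0% of the Slc39a7 exon bases, so that reads of the 2 cannot be told apart there. Set against the granule transporter within a library, there were 2.48 ± 0.22 Slc39a7 counts per Slc30a8 count in Pdx1 siRNA IP and 1.65 ± 0.02 in NT siRNA IP, and 1.24 ± 0.02 in Pdx1 siRNA total and 1.06 ± 0.05 in NT siRNA total.

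Slc39a14 encodes ZIP14, a plasma membrane importer of zinc, iron and manganese, and lies at chr14:70303467-70351452. Its total RNA level was 84.5, 90.8 and 102.1 CPM with Pdx1 siRNA, against 64.4, 69.1 and 66.0 CPM with NT siRNA. The rise of 1.39-fold (log2 fold change 0.48 ± 0.08, adjusted p = 2.18e-04) left no overlap between the groups. The IP libraries held 48.3, 52.8 and 57.7 CPM with Pdx1 siRNA, against 43.5, 45.9 and 41.6 CPM with NT siRNA (log2 fold change 0.28 ± 0.09, adjusted p = 0.0109). The IP call was lost without Pdx1 siRNA IP replicate 3 (0.21, adjusted p = 0.0594), and without TMM factors the IP change was -0.03 (adjusted p = 0.737) beside a median gene at -0.32.

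Slc39a6 (ZIP6) and Slc39a10 (ZIP10) are closely related importers at the plasma membrane. Slc39a10, at chr1:46807544-46925776, had 57.5, 63.3 and 69.0 CPM with Pdx1 siRNA in total RNA, against 48.6, 53.6 and 51.5 CPM with NT siRNA. Its log2 fold change was 0.30 ± 0.09 (adjusted p = 0.0143), but 0.24 (adjusted p = 0.0714) without Pdx1 siRNA total replicate 3 and 0.02 (adjusted p = 0.839) without TMM factors. In IP RNA the groups overlapped, with 30.2, 34.0 and 37.7 CPM for Pdx1 siRNA and 32.9, 36.3 and 29.6 CPM for NT siRNA (log2 fold change 0.05 ± 0.10, adjusted p = 0.697). Slc39a6 overlapped between the siRNAs in both fractions. It had 161.2, 174.2 and 201.4 CPM with Pdx1 siRNA and 170.5, 176.4 and 173.3 CPM with NT siRNA in total RNA (log2 fold change 0.05 ± 0.09, adjusted p = 0.70). In IP RNA it had 162.5, 163.6 and 195.4 CPM with Pdx1 siRNA and 186.4, 187.8 and 183.2 CPM with NT siRNA (log2 fold change -0.10 ± 0.09, adjusted p = 0.379). Without TMM factors Slc39a6 was lower past the test in both fractions, beside a median gene at -0.32. It was then at -0.24 in total RNA (adjusted p = 0.00689) and -0.41 in IP RNA (adjusted p = 9.63e-05).

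Within the Pdx1 siRNA groups, replicate 3 held the highest level of all 8 transporters in total RNA and of all 8 in IP RNA. It also had the lowest TMM factor of its group in both fractions, 0.95 and 0.752. On library sizes without these factors, replicate 3 was highest for 8 of 8 transporters in Pdx1 siRNA total and for 3 of 8 in Pdx1 siRNA IP. Neither metallothionein was highest in replicate 3 of a Pdx1 siRNA group.

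**Figure D3:**
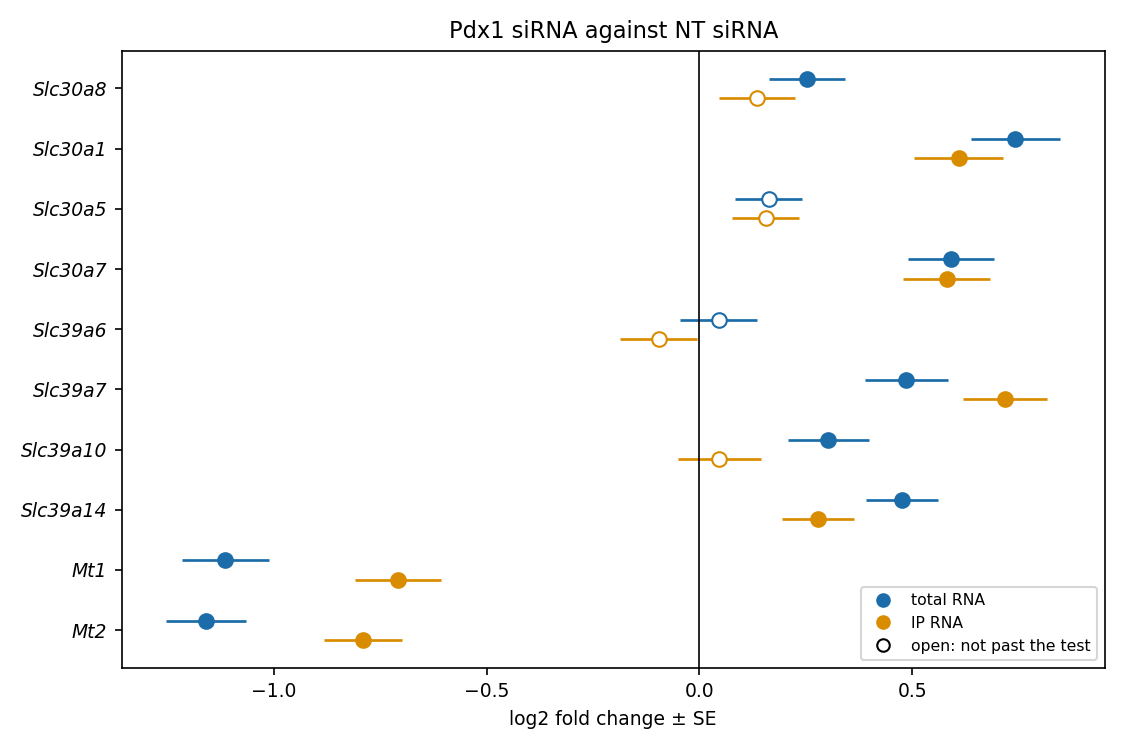
Log2 fold change of Pdx1 siRNA against NT siRNA (x axis) for the 10 genes, in total RNA and in IP RNA; bars are standard errors and open circles did not pass the test. Mt1 and Mt2 are negative in both fractions, at -1.11 and -1.16 in total RNA, and Slc30a1 is highest in total RNA at 0.74; without TMM factors Slc30a8, Slc30a5 and Slc39a6 turn negative in total RNA, and Slc30a8, Slc30a5, Slc39a10 and Slc39a14 in IP RNA.

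Whether the siRNA effect itself differed between IP and total RNA was tested as an interaction. No member passed in edgeR or in DESeq2, beside 0.174% of all genes higher and 0.0554% lower in edgeR. An unadjusted p under 0.05 was found for 2 of the 10 members and for 2155 of all 12643 genes in edgeR, so the members' share is near that of all genes. The 2 were Mt1, with an interaction of 0.41 ± 0.14 on the log2 scale (adjusted p = 0.168), and Mt2, with 0.37 ± 0.13 (adjusted p = 0.172). Positive values mean a smaller fall in IP RNA. Without NT siRNA IP replicate 3, the library with the highest Mt1 level, the Mt1 interaction was 0.52 (adjusted p = 0.0367). That library and the 3 Pdx1 siRNA IP libraries are those that stood apart at Rpl32l. With a term for these 4 libraries the siRNA comparison in IP RNA rests on NT siRNA IP replicate 3 alone on the NT side. The Mt1 interaction was then 0.21, while the siRNA effect on Mt1 in IP RNA was -0.91. As 1 library sets these values, nothing is concluded from them.

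IP RNA against total RNA compares the RNA recovered with ribosomes to all RNA of the same treatment. Under Pdx1 siRNA this comparison coincides with the split of the libraries at Rpl32l, and the part of that split was not tested. Under Pdx1 siRNA 4 members were higher in IP RNA, 2 lower and 4 not past the test, beside 36.3% of all genes higher and 38.7% lower. Under NT siRNA the counts were again 4, 2 and 4, beside 33.8% of all genes higher and 35.9% lower. Without TMM factors they became 3 higher and 6 lower with Pdx1 siRNA, and 2 higher and 5 lower with NT siRNA, with the median gene at -0.34 and -0.31. The members' counts are near or below what these shares give, and nothing is read from them about the members as a group.

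Mt1 had the highest ratio of IP to total RNA among the members, with a log2 fold change of 1.17 ± 0.10 under Pdx1 siRNA (adjusted p = 7.56e-08) and 0.76 ± 0.10 under NT siRNA (adjusted p = 7.95e-06). Mt2 followed a like pattern, with 0.86 ± 0.09 under Pdx1 siRNA (adjusted p = 7.09e-07) and 0.50 ± 0.09 under NT siRNA (adjusted p = 1.77e-04), although the NT siRNA value was 0.20 (adjusted p = 0.0871) without TMM factors. Among the transporters Slc39a7 was higher in IP RNA, by 0.86 ± 0.10 under Pdx1 siRNA (adjusted p = 1.18e-06) and 0.63 ± 0.10 under NT siRNA (adjusted p = 3.81e-05). Slc30a5 was higher by 0.35 ± 0.08 under Pdx1 siRNA (adjusted p = 8.20e-04) and 0.36 ± 0.08 under NT siRNA (adjusted p = 8.02e-04). Its call under Pdx1 siRNA was lost (0.34) with the term for the 4 IP libraries, whose size is set by NT siRNA IP replicate 3. Both calls were lost without TMM factors (0.03, adjusted p = 0.662, under Pdx1 siRNA and 0.07, adjusted p = 0.336, under NT siRNA).

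The plasma membrane importers Slc39a10 and Slc39a14 were lower in IP RNA than in total RNA. Slc39a10 fell to 34.0 ± 3.7 CPM in IP RNA, against 63.3 ± 5.7 CPM in total RNA under Pdx1 siRNA (log2 fold change -0.90 ± 0.10, adjusted p = 6.77e-07), and to 32.9 ± 3.4 CPM in IP RNA, against 51.3 ± 2.5 CPM in total RNA under NT siRNA (-0.64 ± 0.10, adjusted p = 2.84e-05). Slc39a14 fell by 0.80 on the log2 scale under Pdx1 siRNA (SE 0.09, adjusted p = 5.09e-07) and by 0.61 under NT siRNA (SE 0.09, adjusted p = 1.38e-05). Both kept these calls under all 23 alternative settings. The other 4 transporters did not pass the test under either siRNA in the fit reported. Slc30a8, the granule transporter, had log2 fold changes of -0.13 ± 0.09 under Pdx1 siRNA and -0.01 ± 0.09 under NT siRNA. Slc30a1, Slc30a7 and Slc39a6 lay between -0.14 and 0.18 under either siRNA. Without TMM factors all 4 were lower past the test under Pdx1 siRNA, beside a median gene at -0.34. Slc30a8 was then at -0.45 (adjusted p = 1.41e-05) and Slc30a7 at -0.46 (adjusted p = 1.43e-04). Under NT siRNA they were at -0.30 (adjusted p = 6.83e-04) and -0.42 (adjusted p = 4.05e-04). Without NT siRNA IP replicate 3 Slc30a1 passed under NT siRNA, at 0.27 (adjusted p = 0.0328). Leaving out Pdx1 siRNA total replicate 1 put Slc30a8 (-0.21, adjusted p = 0.0436) and Slc30a7 (-0.23, adjusted p = 0.0394) past the test as lower under Pdx1 siRNA.

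**Figure D4:**
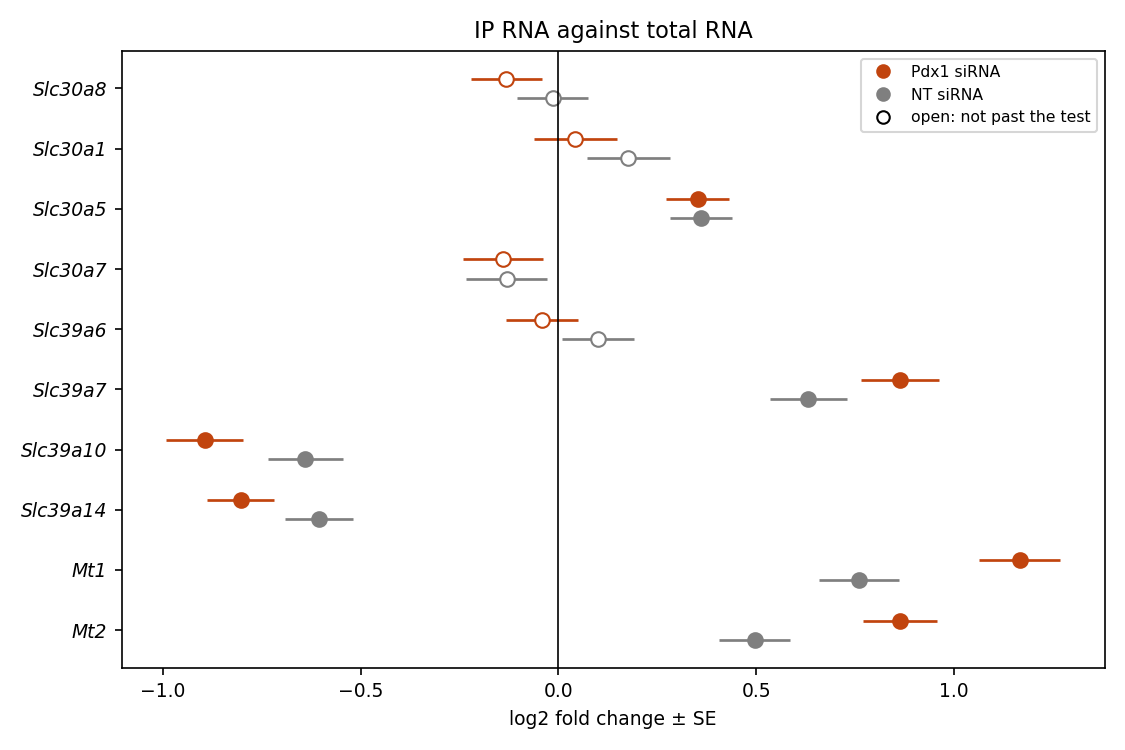
Log2 fold change of IP RNA against total RNA (x axis) for the 10 genes under Pdx1 siRNA and under NT siRNA; bars are standard errors and open circles did not pass the test. Mt1 is highest, at 1.17 and 0.76, and Slc39a10 lowest, at -0.90 and -0.64; without TMM factors Slc30a1 turns negative under both siRNAs and Slc39a6 under NT siRNA, and with RLE scaling Slc30a8 turns positive under NT siRNA.

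Levels of different genes were compared per kilobase of transcript. With NT siRNA in total RNA, Slc30a8 (282 ± 6 CPM per kb), Mt1 (272 ± 31) and Slc39a7 (253 ± 8) led and overlapped as neighbours in the order. They were followed by Mt2 at 125 ± 14, Slc30a5 at 96.5 ± 1.6, Slc39a6 at 44.7 ± 0.8, Slc39a14 at 31.7 ± 1.1, Slc30a7 at 10.8 ± 0.4, Slc39a10 at 9.33 ± 0.45 and Slc30a1 at 5.27 ± 0.12 CPM per kb, with no overlap between neighbours. The exporter Slc30a1 was thus the least abundant member in this group. With Pdx1 siRNA in total RNA, Slc39a7 (354 ± 37 CPM per kb) and Slc30a8 (336 ± 38) led with overlapping libraries, and Mt1 followed at 126 ± 6 without overlap. Slc30a5 at 108 ± 8 CPM per kb stood above Mt2 at 55.8 ± 3.5, which is the reverse of their order with NT siRNA. Slc39a6 at 46.1 ± 5.3 and Slc39a14 at 44.1 ± 4.2 CPM per kb overlapped, and Slc30a7, Slc39a10 and Slc30a1 came last at 16.3 ± 2.3, 11.5 ± 1.0 and 8.82 ± 1.16.

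In IP RNA with Pdx1 siRNA, Slc39a7 led at 645 ± 72 CPM per kb, ahead of Slc30a8 at 306 ± 23 and Mt1 at 283 ± 14, which overlapped. With NT siRNA in IP RNA, Mt1 led at 462 ± 61 CPM per kb, ahead of Slc39a7 at 392 ± 9 and Slc30a8 at 279 ± 7, without overlap between neighbours. Slc30a5 held 138 ± 9 CPM per kb with Pdx1 siRNA IP and 124 ± 1 with NT siRNA IP, and Mt2 held 102 ± 7 with Pdx1 siRNA IP and 176 ± 14 with NT siRNA IP. At the low end Slc30a1 (9.08 ± 0.91 CPM per kb) stood above Slc39a10 (6.18 ± 0.68) in Pdx1 siRNA IP, whereas in NT siRNA IP Slc39a10 (5.99 ± 0.62) and Slc30a1 (5.96 ± 0.72) overlapped. The length used was that of the transcript with the largest sum of counts. Other transcripts held nearly the same counts, 96.59% to 98.7% of the one kept for Slc39a7 and 99.34% to 100.55% for Slc39a14. Slc39a7 and Slc39a14 have more than 1 transcript in the files, and with the mean length of these Slc39a7 in NT siRNA total would be 303 CPM per kb and head that order. In NT siRNA IP it would be 470 CPM per kb, above the 462 of Mt1, and in both Pdx1 siRNA groups Slc39a7 leads with either length. Slc39a14 in Pdx1 siRNA total would be 30.5 CPM per kb with the mean length, further below the 46.1 of Slc39a6.

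By likeness of pattern over the 12 libraries (Pearson's r of log2 CPM, given without p, since the libraries fall into 4 groups), the 3 genes closest to Slc30a8 were Gcnt2 (r = 0.969), Ntrk2 (0.964) and Miga2 (0.954). Closest to Mt1 were Eif4ebp1 (0.995), Dctpp1 (0.994) and Ttc9b (0.991). Eif4ebp1, which encodes a repressor of cap-dependent translation, averaged 10.2 ± 0.02 CPM in Pdx1 siRNA total and 24.5 ± 3.4 CPM in NT siRNA total. In IP RNA it averaged 25.2 ± 1.0 CPM with Pdx1 siRNA and 45.0 ± 4.8 CPM with NT siRNA, so the order of the group means was that of Mt1. Ntrk2, which encodes the neurotrophin receptor TrkB, averaged 717 ± 88 CPM in Pdx1 siRNA total and 577 ± 21 CPM in NT siRNA total.

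Outside the 10 members, a list of 20 other zinc homeostasis genes had 13 measured. In total RNA 9 rose after Pdx1 siRNA, 1 fell and 3 did not pass the test, beside 23.8% of all genes higher and 29.2% lower, with a median log2 fold change of 0.46. In IP RNA 10 rose, 1 fell and 2 did not pass, beside 29.2% of all genes higher and 30.4% lower, with a median of 0.60. Without TMM factors, which put the median gene at -0.32, 7 genes of the list were higher and 4 lower in total RNA, and 8 higher and 1 lower in IP RNA. Over members and list together, 9 of 11 Slc39 genes rose and 1 fell in total RNA, against 7 and 2 without TMM factors. Of the 7 Slc30 genes 5 rose and 0 fell in total RNA, against 3 and 1 without TMM factors. In IP RNA 8 of 11 Slc39 genes rose and 1 fell (7 and 3 without TMM factors), and 4 of 7 Slc30 genes rose and 0 fell (3 and 2 without TMM factors).

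The gene that fell was Slc39a8, which encodes ZIP8, an importer of zinc and manganese. It had 16.2, 16.5 and 16.9 CPM with Pdx1 siRNA in total RNA, against 63.05, 63.5 and 62.4 CPM with NT siRNA, a 3.81-fold fall (log2 fold change -1.93 ± 0.08, adjusted p = 9.75e-11). In IP RNA it had 11.1, 14.5 and 12.6 CPM with Pdx1 siRNA, against 60.0, 58.6 and 58.6 CPM with NT siRNA, a 4.62-fold fall (log2 fold change -2.21 ± 0.08, adjusted p = 2.01e-11). The fall was larger than that of either metallothionein, and the libraries of a group lay close together.

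Slc39a4, the zinc importer known from the intestine, was low but rose 3.02-fold in total RNA, averaging 5.53 ± 0.85 CPM with Pdx1 siRNA and 1.83 ± 0.34 CPM with NT siRNA (log2 fold change 1.59 ± 0.17, adjusted p = 2.23e-06). In IP RNA its log2 fold change was 1.56 ± 0.20 (adjusted p = 7.27e-06). Slc39a11, another member of the ZIP family, averaged 162.1 ± 18.4 CPM with Pdx1 siRNA and 75.0 ± 1.7 CPM with NT siRNA in total RNA (log2 fold change 1.11 ± 0.09, adjusted p = 9.16e-08), and rose by 1.18 ± 0.09 in IP RNA (adjusted p = 3.62e-08). Slc39a13 encodes ZIP13, a zinc transporter of intracellular vesicles. It rose by 0.67 ± 0.09 in total RNA (adjusted p = 1.91e-05) and 0.83 ± 0.09 in IP RNA (adjusted p = 1.75e-06) on the log2 scale. Slc30a6, whose protein pairs with that of Slc30a5 in the secretory pathway, rose by 0.58 ± 0.08 in total RNA (adjusted p = 3.20e-05) and 0.55 ± 0.08 in IP RNA (adjusted p = 5.08e-05). Tmem163, which encodes a zinc-binding membrane protein of vesicles, rose by 0.52 ± 0.10 in total RNA (adjusted p = 4.18e-04) and 0.72 ± 0.10 in IP RNA (adjusted p = 1.68e-05). These 5 genes kept a positive sign without TMM factors.

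**Figure D5:**
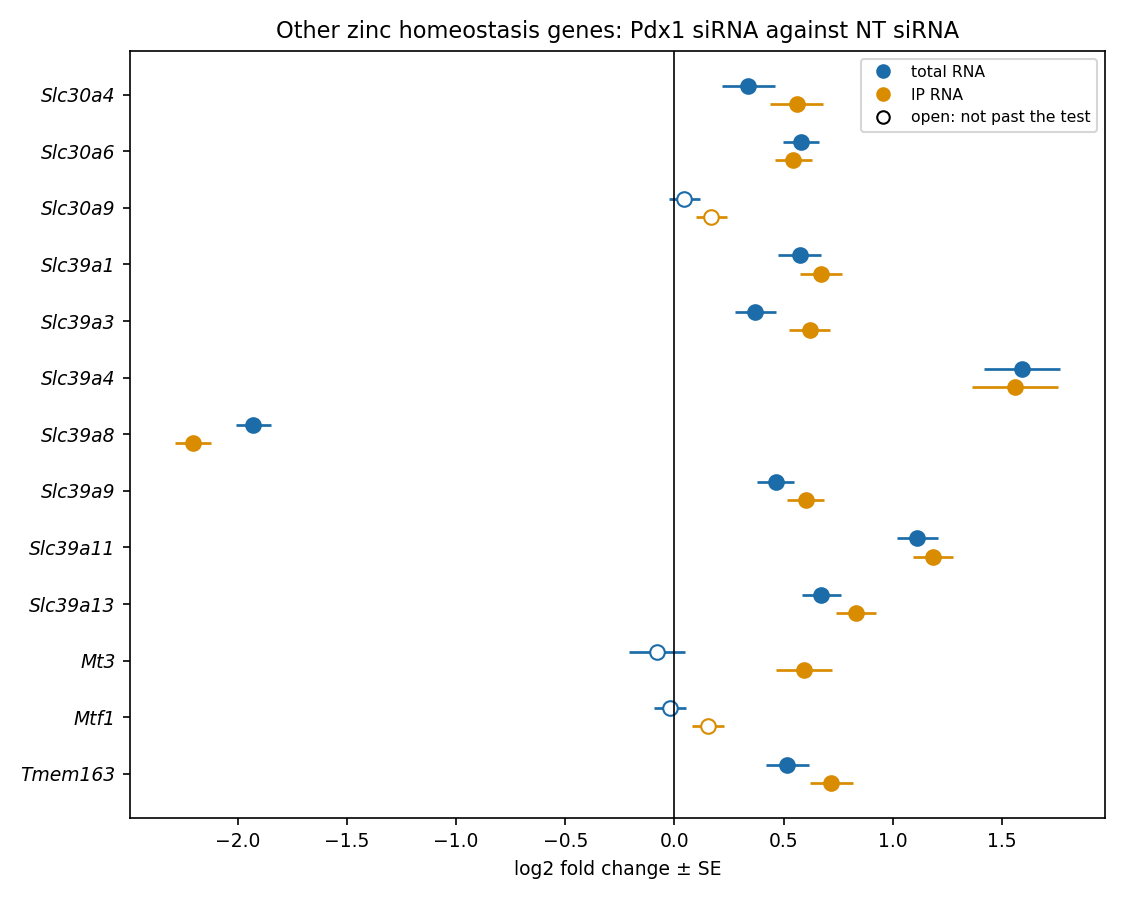
Log2 fold change of Pdx1 siRNA against NT siRNA (x axis) for the 13 measured genes of the zinc homeostasis list, in total RNA and in IP RNA; bars are standard errors and open circles did not pass the test. Slc39a8 is the only gene past the test on the negative side, at -1.93 and -2.21, and Slc39a4 is highest at 1.59 and 1.56; the sign of Mtf1 changes with the scaling, and without TMM factors 4 genes pass on the negative side in total RNA.

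Mt3, the metallothionein known from the brain, lies beside Mt2 and Mt1 at chr8:94152607-94154148. In total RNA it had 73.8, 62.5 and 55.4 CPM with Pdx1 siRNA, against 73.4, 59.6 and 69.6 CPM with NT siRNA, and the groups overlapped (log2 fold change -0.08 ± 0.13, adjusted p = 0.629). In IP RNA it had 224.4, 186.1 and 172.3 CPM with Pdx1 siRNA, against 126.2, 112.2 and 147.4 CPM with NT siRNA, a rise of 1.51-fold (log2 fold change 0.59 ± 0.13, adjusted p = 9.50e-04). With the term for the 4 IP libraries the IP value was 0.40 and the call was lost, with NT siRNA IP replicate 3 alone on the NT side. Without TMM factors the IP value was 0.29 (adjusted p = 0.088). The total RNA value without TMM factors was -0.35 (adjusted p = 0.0471). The interaction of 0.67 ± 0.18 did not pass edgeR's test (adjusted p = 0.0853), but it passed with DESeq2 (0.66, adjusted p = 0.0269), without Pdx1 siRNA total replicate 1 (0.79, adjusted p = 0.0353) and without NT siRNA IP replicate 3 (0.78, adjusted p = 0.017). Within libraries there were 1.09 ± 0.13 Mt1 counts per Mt3 count in Pdx1 siRNA total and 2.22 ± 0.09 in NT siRNA total, and 0.806 ± 0.096 in Pdx1 siRNA IP and 1.97 ± 0.04 in NT siRNA IP. Mt3 was also higher in IP than in total RNA, by 1.60 ± 0.13 under Pdx1 siRNA (adjusted p = 3.76e-08) and 0.93 ± 0.13 under NT siRNA (adjusted p = 1.27e-05), on the log2 scale.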

How the data were processed

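RNA sequencing of 12 MIN6 libraries was used, in 4 groups of 3. The authors deposited raw counts of reads per RefSeq transcript for each library, as whole numbers without normalization. Per the submitters' processing notes, TopHat2 and featureCounts were used with mm10; versions are not stated there. Handling of strand and of reads with several matches is not given in the sources used here. Of 17133 transcripts, 16838 matched a symbol in a RefSeq table of GRCm38.p6. The 295 unmatched ones (0.577% to 0.834% of counts) were not used. For each of 12643 genes the transcript with the largest sum of counts was kept. No transcript had fewer than 141 counts over all libraries, and rarer ones are not analysed here.

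Tests used edgeR 4.0.16 (R 4.3.3), in a quasi-likelihood fit of all libraries with a mean per group, TMM factors and the default expression filter. P-values were adjusted by Benjamini-Hochberg over all genes, and standard errors were derived from the fold change and the F statistic. The scripts were first tested on simulated counts. The standard errors include the variation among libraries, and no interval from the reads of a single library is given. CPM and CPM per kb were computed from the counts, with transcript lengths and gene coordinates from GENCODE M21. Transcripts with near-identical copies were searched with minimap2 2.31. Promoters came from the RefSeq table, which was searched for the metal response element core. The 10 members, the zinc gene list and the marker lists were chosen with earlier results of these data known. Named genes were the members, Pdx1, from the list up to 5 genes per comparison with the largest change past the test, and the 3 genes most like Slc30a8 and Mt1 among those with a mean of at least 5 CPM. Mtf1 and Mt3 came under the same rule through IP against total RNA.

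Alternatives were other scalings (RLE, upper quartile), DESeq2 1.42.0, no filter, a minimum of 1 CPM in 3 libraries, the insulin genes removed, a replicate block, only the libraries compared, transcripts summed per gene, a term for the 4 IP libraries apart at Rpl32l, and each library left out. Library size without a scaling factor was added after seeing the data.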

Additional observations from a re-analysis of the deposited data

How the results depend on the processing

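The number of members past the test stayed within 1.5 times its main value under each alternative for the siRNA and fraction comparisons, and 1 member passed the interaction in the fit without NT siRNA IP replicate 3, so that the counts over fits leaving out 1 library were 0 to 1. These numbers ignore direction. Without scaling factors the siRNA split in total RNA went from 6 higher and 2 lower to 4 higher and 3 lower. It moved further in IP RNA, as given above. The interaction over all genes was sensitive: 29 genes passed in the fit reported, 52 with upper-quartile scaling, 327 with DESeq2, 54 with Ins1 and Ins2 left out, 373 with the replicate block, 5 with the term for the 4 IP libraries, 11 without scaling factors and 4 to 571 with 1 library left out. The cause was not tested.

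The labels do not say whether libraries of the same replicate number belong together, and the fit reported does not pair them. Correlations of deviations from the group means ran from -0.0899 to 0.702 for same-numbered libraries and from -0.661 to 0.366 for different-numbered ones. Pairing is therefore not settled, and values with the replicate block are given here only. With the replicate block Slc30a5 passed the test in total RNA (0.16, adjusted p = 0.0432) and in IP RNA (0.15, adjusted p = 0.0485), giving 9 and 7 members past the test. It also brought the Mt3 interaction past the test (0.67, adjusted p = 0.0404) and Mtf1 in IP RNA (0.15, adjusted p = 0.0376).

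Signs turned under several settings. Without scaling factors the log2 fold changes for Pdx1 siRNA in total RNA were -0.028 for Slc30a8, -0.12 for Slc30a5 and -0.24 for Slc39a6. In IP RNA they were -0.17 for Slc30a8, -0.15 for Slc30a5, -0.27 for Slc39a10, -0.032 for Slc39a14 and -0.15 for Mtf1. For IP against total RNA they were -0.28 for Slc30a1 under Pdx1 siRNA, and -0.11 for Slc30a1 and -0.19 for Slc39a6 under NT siRNA. Mtf1 in total RNA was 0.004 with RLE scaling and with DESeq2, 0.029 with upper-quartile scaling, and 0.007 with the insulin genes left out and with only the libraries compared. With upper-quartile scaling Slc30a1 was -0.002 in IP against total RNA under Pdx1 siRNA. Slc30a8 in IP against total RNA under NT siRNA was 0.024 with RLE scaling and with DESeq2 and 0.022 with the insulin genes left out. The term for the 4 IP libraries gave interactions of 0.072 for Slc30a1 and 0.091 for Slc30a7, and 0.008 for Slc30a7 in IP against total RNA under Pdx1 siRNA. With 1 library left out, ranges that crossed 0 were -0.048 to 0.115 (Slc39a6), -0.195 to 0.021 (Mt3) and -0.066 to 0.039 (Mtf1) for the siRNA in total RNA. They were -0.033 to 0.116 (Slc39a10) for the siRNA in IP RNA, and -0.090 to 0.057 (Slc30a5) and -0.128 to 0.104 (Slc30a7) for the interaction. For IP against total RNA they were -0.032 to 0.154 (Slc30a1) and -0.126 to 0.052 (Slc39a6) under Pdx1 siRNA, and -0.031 to 0.042 (Slc30a8) under NT siRNA. With 3 libraries a group, effects near the size of these ranges could not be given a direction.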
